A study of Mus musculus with 6 samples.

Results

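Neural stem and radial glia markers are genes whose products have long been used to recognise dividing neural precursors. The 10 genes described here are Nes, Vim, Prom1, Msi1, Msi2, Fabp7, Hopx, Nr2e1, Hmga2 and Rest, picked by gene symbol from the 22322 genes of the deposited table. All 10 had a row of their own, and all 10 were among the 13161 genes with enough reads to be tested. They were followed in wild-type (WT) mouse neural stem progenitor cells (NSPCs) collected 24 h after treatment with PTN (3 libraries) or with PBS, labelled Control (3 libraries). PTN stands unexplained in the labels and is read here as pleiotrophin, a secreted heparin-binding growth factor. The sources used here do not give the dose, the brain region and age the cells came from, or whether the libraries came from separate cultures. The p-values therefore reflect only how these libraries vary, which may be technical. Both groups carry the same genotype.

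Radial glia are the elongated precursor cells of the developing brain, and adult neural stem cells keep many of their features. Their cytoskeleton holds the intermediate filament proteins vimentin and nestin, their membrane carries prominin-1 (CD133), and their cytoplasm holds the Musashi RNA-binding proteins and the brain lipid-binding protein encoded by Fabp7. In the nucleus, Nr2e1 (TLX), Hmga2 and Rest are regulators of transcription or chromatin that help to keep precursors undifferentiated, and Hopx is an atypical homeodomain protein that marks quiescent stem cells in the adult mouse and outer radial glia in human cortex. As cells mature along the astrocyte lineage, vimentin and nestin give way to the filament protein encoded by Gfap.

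Total expected counts lay between 19267764 and 25975205 in the PTN libraries and between 21268297 and 26341745 in the Control libraries. Mitochondrial transcripts took between 3.97% and 8.12% of the counts, and no 2 libraries agreed within sampling noise (the least different pair, Control 2 and Control 3, had a chi-square of 12.4 per degree of freedom over genes). The PTN libraries did not form a tight group. By that chi-square, which grows with depth, PTN 3 was nearer to Control 3 (68.9) and Control 1 (88.4) than to PTN 1 (98.6) and PTN 2 (106.5). By the correlation of log2 CPM over all tested genes (Pearson's r), PTN 3 was nearest to PTN 1 (0.97), but nearer to Control 3 (0.962) than to PTN 2 (0.956). Across the whole table, fold changes were more positive for longer genes: the median log2 value was -0.24 in the shortest eighth of genes and 0.31 in the longest eighth. The place of each marker on this scale is given beside its result, and its part in the result was not tested.

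The 10 genes spanned nearly 3 orders of magnitude in level per length. In FPKM (fragments per kilobase of gene, scaled by library depth), the order of the means in PTN libraries was Vim, Fabp7, Nes, Msi2, Msi1, Nr2e1, Hopx, Hmga2, Prom1 and Rest. In Control libraries it was Fabp7, Vim, Nes, Msi1, Msi2, Nr2e1, Hopx, Prom1, Hmga2 and Rest. Neighbours whose ranges overlapped in PTN libraries were Vim and Fabp7, Msi2 and Msi1, Nr2e1 and Hopx, Hopx and Hmga2, and Hmga2 and Prom1. In Control libraries only the ranges of Fabp7 and Vim, of Nr2e1 and Hopx, and of Hmga2 and Rest overlapped. Vim and Fabp7 were at percentile 99.9 of the mean FPKM of all tested genes, and Nes was at 96.3. Msi1 and Msi2 were at 89.4 and 89.1, Nr2e1 at 64.5 and Hopx at 58.4, while Prom1, Hmga2 and Rest stood lowest at 44.3, 39.1 and 32.0. Of the defining precursor markers, Vim, Fabp7 and Nes were thus abundant in every library, and none of the 10 was near 0. Summed over the 10 genes, CPM (counts scaled to library size) lay between 7652 and 9112 in PTN libraries and between 5830 and 6677 in Control libraries, of which Vim, Fabp7 and Nes made up between 92.2% and 94.1%.

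**Figure D1:**
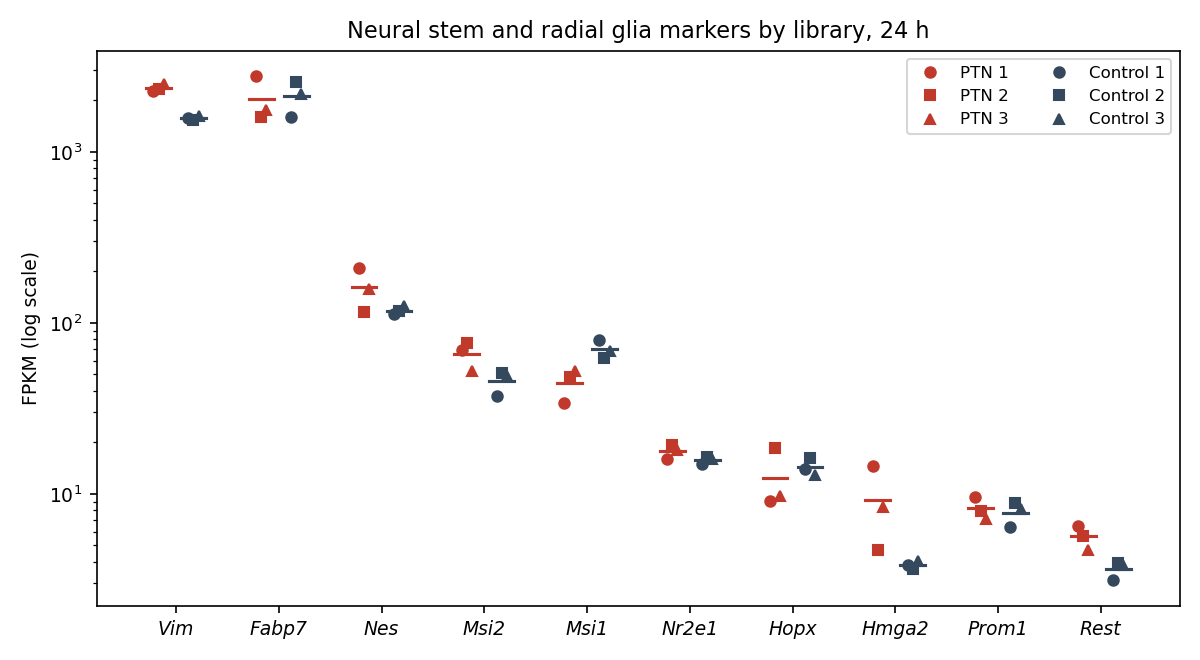
Deposited FPKM (log axis) of each marker in every library, with PTN libraries in red left of Control libraries in dark blue, a marker shape for each library number and a bar at the group mean. Vim, Hmga2, Rest and, narrowly, Msi2 lie higher in all 3 PTN libraries than in any Control library, and Msi1 lies lower.

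Of the 10 genes, 1 rose after PTN (Vim) and 0 fell at an adjusted p under 0.05 in edgeR's quasi-likelihood test, adjusted over all tested genes. Among all tested genes 4.93% were called higher and 3.06% lower, 7.99% in all. At an unadjusted p under 0.05 there were 5 of the 10, Vim, Rest, Hmga2, Msi1 and Msi2, beside 3549 of the 13161 tested genes. DESeq2's Wald test called 4 higher (Vim, Hmga2, Rest and Msi2) and 1 lower (Msi1), and called more of the whole table as well, with 1134 genes higher and 774 lower. Without PTN 3, edgeR called the same 5 markers, 4 higher and 1 lower, beside 1273 genes higher and 904 lower in the whole table. Without PTN 1, or any one Control library, it called 0 markers. The CPM values of the groups did not overlap for 3 genes that were higher in PTN libraries (15.7% of all tested genes) and for 1 that was lower (17.1%) and 32.9% in either direction. The median log2 fold change of the 10 was 0.28, against 0.03 for all tested genes, and 7 of the 10 had a positive value (52.5% of all tested genes). In bulk RNA, more or fewer cells of a type and more or less RNA per cell cannot be told apart.

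**Figure D2:**
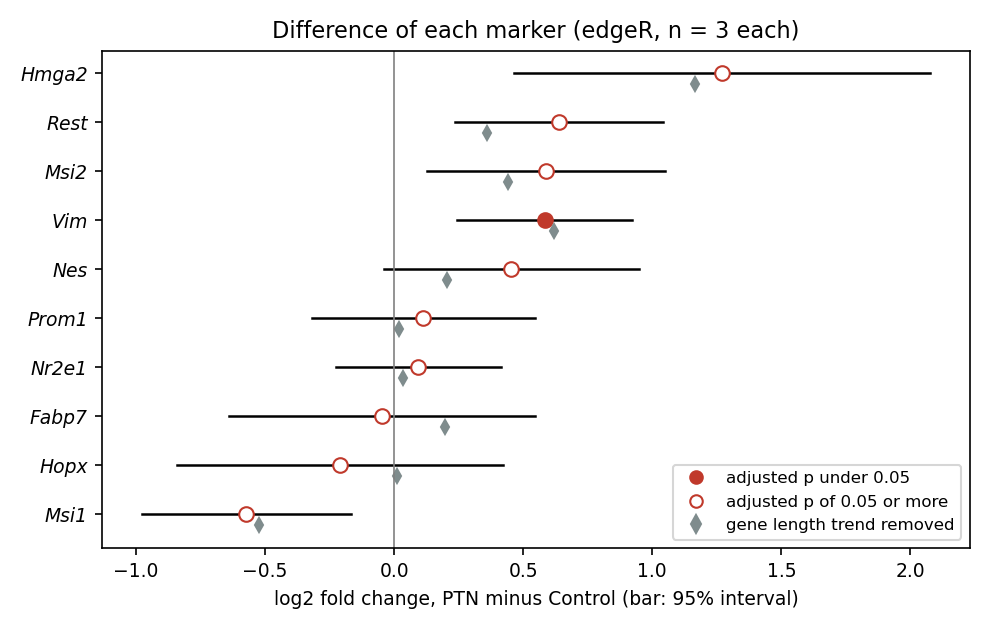
Log2 fold change of each marker, PTN minus Control, with its 95% interval (edgeR, n = 3 each), filled where the adjusted p is under 0.05. Grey diamonds give the value after the trend with gene length is removed, where Rest moves to 0.36 and Nes to 0.21 while Vim is at 0.62.

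Vim encodes vimentin, the main filament protein of radial glia. It lies on chromosome 2 (GRCm38, 13573927 to 13582826, plus strand). Vim had 2260, 2331 and 2484 FPKM in PTN 1, PTN 2 and PTN 3, against 1581, 1536 and 1622 FPKM in Control 1, Control 2 and Control 3. The 3 PTN libraries were close to each other and all above the Control libraries. In CPM it averaged 5165 ± 243 in PTN libraries and 3448 ± 73.6 in Control libraries (SD, n = 3 each), 1.5-fold higher, with a log2 fold change of 0.58 ± 0.15 (SE) and an edgeR adjusted p of 0.0482. Vim belongs to the third shortest eighth of genes, whose median log2 fold change was -0.06. The log2 value stayed between 0.53 and 0.61 whichever library was left out, but the edgeR adjusted p was 0.0818 without PTN 1 and 0.163, 0.176 and 0.209 without Control 1, Control 2 and Control 3. It was also 0.0644 under upper-quartile scaling and 0.0827 and 0.104 by limma on log2 FPKM with pseudocounts of 0.1 and 1.

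The promoter of Vim is shown because Vim was the called gene of the set. It runs from 250 bases before to 50 after the start in RefSeq (GRCm38.p6, chr2:13574061-13574360, plus strand). This whole stretch lies inside the GENCODE M21 span of Vim given above, which begins at 13573927, upstream of the RefSeq start. Capitals mark matches, on either strand, to CCAAT and TATAAA.
Vim promoter: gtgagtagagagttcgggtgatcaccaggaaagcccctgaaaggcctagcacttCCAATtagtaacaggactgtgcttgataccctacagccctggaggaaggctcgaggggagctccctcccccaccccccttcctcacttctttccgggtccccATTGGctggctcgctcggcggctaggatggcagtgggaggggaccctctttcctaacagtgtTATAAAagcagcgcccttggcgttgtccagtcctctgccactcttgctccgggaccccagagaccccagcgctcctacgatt
The TATAAA match begins at position -32 from the start, and the CCAAT matches, which do not overlap it, at -196 and -94. Matches to TATAAA were present in 13.6% and to CCAAT in 37.4% of all 32851 promoters of that length. Of the 8 markers with a promoter in the table, 1 held TATAAA (Vim) and 5 held CCAAT. The shares are of single promoters, while a marker was counted if any of its promoters held the match, so they are not like for like. Over the 6 libraries, the genes whose log2 CPM was most like that of Vim were Bbc3 (Pearson's r = 0.998), Gab2 (0.998) and Btg1 (0.997), of 12450 genes with a mean of at least 1 CPM. With 2 groups of 3 libraries, any gene that differs evenly between the groups has a high r.

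Nes encodes nestin, which co-assembles with vimentin. Nes had 209.8, 116 and 157 FPKM in PTN 1, PTN 2 and PTN 3, against 112, 117 and 125 FPKM in Control 1, Control 2 and Control 3. PTN 1 was far above every Control library, while PTN 2 lay within the Control range. The log2 fold change was 0.45 ± 0.22 (SE), with a 95% interval of -0.04 to 0.95 (edgeR adjusted p = 0.215), an interval that includes 0. Nes is among the longest eighth of genes, whose median was 0.31, and its value with the length trend removed was 0.21.

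Of 12 partner genes of these filaments (other filament subunits, lamins and plakin linkers), 10 were tested, 1 rose and 1 fell, with a median log2 fold change of 0.31. The counts of this list and of those below stand beside 4.93% of all tested genes called higher and 3.06% called lower, with a median of 0.03. Plec, which encodes the linker plectin that ties vimentin filaments to other structures, had 395, 225 and 512 CPM in PTN libraries, against 124, 92.2 and 123 CPM in Control libraries. It was 3.33-fold higher (edgeR adjusted p = 0.00964), and all PTN libraries were above all Control libraries. With the length trend removed, the adjusted p of Plec, one of the longest eighth of genes, was 0.0804. Gfap, which encodes another filament protein, had 342, 1685 and 414 CPM in PTN libraries, against 3740, 3614 and 3601 CPM in Control libraries. It was 4.49-fold lower (edgeR adjusted p = 0.047), but with an adjusted p of 0.0928 to 0.13 without any one of PTN 1, Control 1, Control 2 and Control 3, and of 0.0604 with the length trend removed. PTN 2 had more Gfap than PTN 1 and PTN 3, and was also the PTN library with the lowest Nes and Plec. The ratio of Vim to Gfap in FPKM, chosen after the values were seen, was 17.6, 3.64 and 15.9 in PTN libraries, against 1.11, 1.13 and 1.19 in Control libraries. Its geometric mean was 8.81-fold higher in PTN libraries, with an exact two-sided permutation p of 0.1, the smallest that 3 libraries against 3 allow. Vim and Gfap were each already apart between the groups, in opposite directions. This p was therefore fixed by the choice of the ratio and adds no support.

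**Figure D3:**
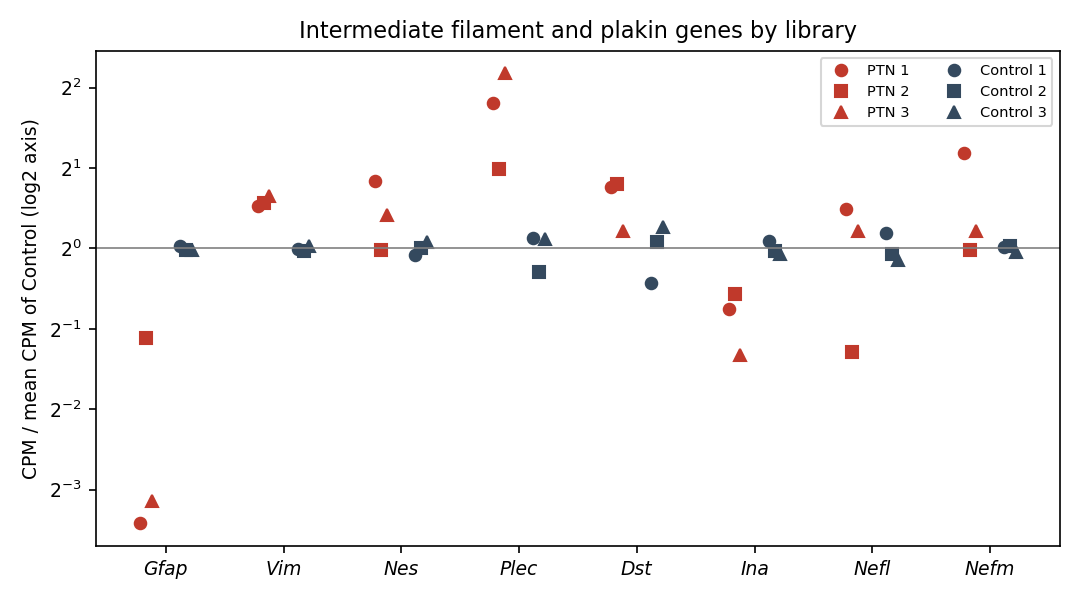
CPM of intermediate filament and plakin genes in each library, divided by the mean of the Control libraries (log2 axis), PTN libraries in red on the left and Control libraries in dark blue on the right of each gene. Vim lies narrowly above 1 in all PTN libraries, Plec lies further above, and Gfap lies far below with PTN 2 (square) the least so.

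Msi1 and Msi2 encode Musashi proteins, related RNA-binding proteins that control translation in neural precursors. Their log2 fold changes had opposite signs, though neither passed the threshold in edgeR. Msi1 had 34.0, 48.0 and 52.2 FPKM in PTN 1, PTN 2 and PTN 3, against 79.7, 62.6 and 68.0 FPKM in Control 1, Control 2 and Control 3. All PTN values were below all Control values, with a log2 fold change of -0.57 ± 0.18 (SE), a 95% interval of -0.98 to -0.17 and an edgeR adjusted p of 0.0867. Msi2 had 69.1, 75.8 and 52.1 FPKM in PTN 1, PTN 2 and PTN 3, against 37.2, 50.9 and 49.0 FPKM in Control 1, Control 2 and Control 3. The FPKM ranges of Msi2 were just apart, but in CPM the lowest PTN library (218) was below the highest Control library (222). The log2 fold change of Msi2 was 0.59 ± 0.20 (SE), with a 95% interval of 0.13 to 1.05 and an edgeR adjusted p of 0.112. By DESeq2's Wald test, with no library left out, the adjusted p was 0.035 for Msi1 and 0.0481 for Msi2. The edgeR adjusted p was under the threshold only without PTN 3, in which both genes were nearest to the Control values (0.0375 for Msi1 and 0.0249 for Msi2). Without any other single library it lay between 0.125 and 0.231 for Msi1 and between 0.163 and 0.349 for Msi2. Msi1 lies in the third shortest eighth of genes and Msi2 in the second longest, and with the length trend removed their log2 fold changes were -0.52 and 0.44.

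The ratio of Msi2 to Msi1 in FPKM sets the genes against each other within a library and was chosen after their values were seen. It was 2.03, 1.58 and 0.998 in PTN libraries, against 0.467, 0.814 and 0.72 in Control libraries. In FPKM, Msi2 was thus the higher of the pair in PTN 1 and PTN 2, both were about level in PTN 3, and Msi1 was the higher in every Control library. This order depends on the scaling to gene length. By counts, Msi2 was the higher in every library, with ratios of 4.46, 3.35 and 2.02 in PTN libraries, against 1.04, 1.72 and 1.49 in Control libraries. The geometric mean of the FPKM ratio was 2.27-fold higher in PTN libraries (exact two-sided permutation p = 0.1, the smallest possible). The FPKM of each gene was already apart between the groups, in opposite directions. This p was therefore fixed by the choice of the ratio and adds no support. Of 8 genes reported as Musashi targets, all tested, 1 rose and 0 fell, with a median log2 fold change of 0.30. The gene that rose was Tacc1, which encodes a centrosome protein, at 120 ± 3.13 CPM in PTN libraries and 80.4 ± 6.61 CPM in Control libraries (SD, n = 3 each, edgeR adjusted p = 0.0354). That call was lost without any one of PTN 1, PTN 2, Control 1, Control 2 and Control 3 (adjusted p = 0.0616 to 0.144), under the replicate block (0.122) and with the length trend removed (0.0515). Numb, the Notch inhibitor whose translation Musashi-1 represses in the mouse, had a log2 fold change of 0.14 ± 0.16 (SE), at an edgeR adjusted p of 0.57. RNA levels do not show translation.

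**Figure D4:**
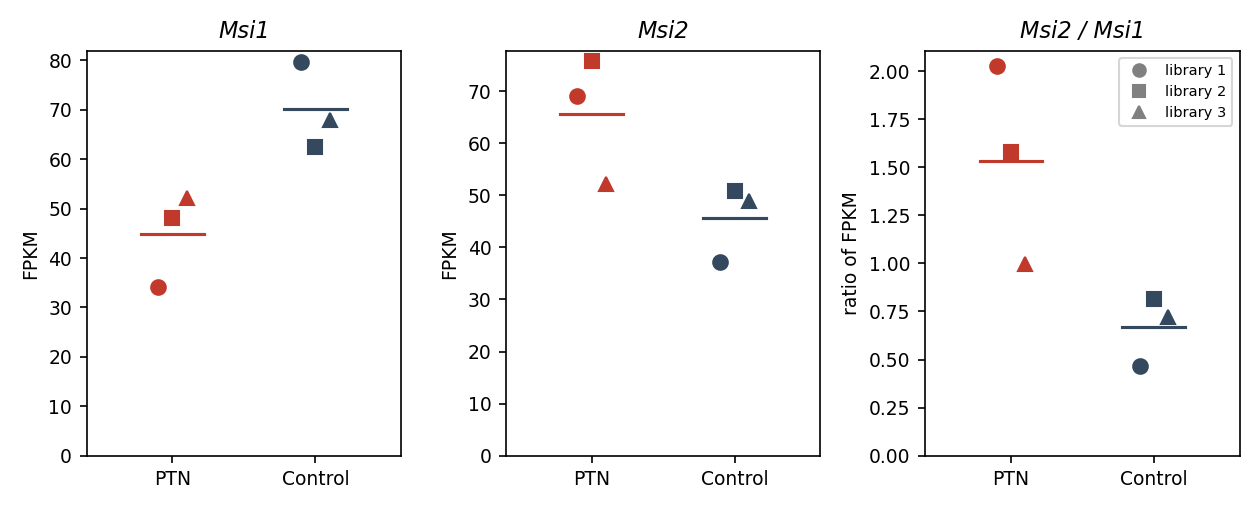
FPKM of Msi1 and Msi2 and their ratio in each library, PTN on the left and Control on the right, with a bar at the mean. Msi1 lies lower in PTN libraries, Msi2 higher, and the ratio lies between 0.998 and 2.03 in PTN libraries and between 0.467 and 0.814 in Control libraries.

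Prom1 encodes prominin-1, a membrane glycoprotein of cell protrusions. Prom1 had 9.64, 7.99 and 7.09 FPKM in PTN 1, PTN 2 and PTN 3, against 6.4, 8.81 and 8.13 FPKM in Control 1, Control 2 and Control 3. The groups overlapped, with a log2 fold change of 0.11 ± 0.19 (SE), a 95% interval of -0.32 to 0.55 and an edgeR adjusted p of 0.709. Prom1 is in the sixth eighth of genes by length, and its value with the length trend removed was 0.02. The log2 value of Prom1 lay between -0.05 and 0.20 on leaving out a library, so its sign was not settled. An antisense gene, Gm16401, shares 424 exon bases with Prom1 in the annotation. The sources used here do not say whether the counting used strand, so reads from those shared bases cannot be told apart.

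Fabp7 encodes a carrier of long-chain polyunsaturated fatty acids. Fabp7 had 2773, 1588 and 1752 FPKM in PTN 1, PTN 2 and PTN 3, against 1593, 2566 and 2177 FPKM in Control 1, Control 2 and Control 3. High and low libraries occurred in both groups, and the log2 fold change was -0.05 ± 0.26 (SE), with a 95% interval of -0.64 to 0.55 (edgeR adjusted p = 0.917). Fabp7 is among the shortest eighth of genes, and its log2 value turned positive, to 0.20, with the length trend removed. It lay between -0.34 and 0.11 on leaving out a library, so its sign was not settled either. Among 9 relatives that bind fatty acids or retinoic acid, 6 were tested, 1 rose and 1 fell, with a median of 0.07. Fabp3, the form of heart and muscle, rose to 4.0 ± 0.64 CPM in PTN libraries, against 1.4 ± 0.272 CPM in Control libraries (SD, n = 3 each, edgeR adjusted p = 0.0145, but 0.0512 to 0.0807 without any one of PTN 1, Control 1, Control 2 and Control 3). Crabp2, a retinoic acid carrier, fell (edgeR adjusted p = 0.0457), on 5, 1 and 3 counts in PTN libraries, against 14, 26 and 10 counts in Control libraries, and its adjusted p was 0.0909 or more on leaving out any library but PTN 3, and 0.0802 under the replicate block. Fabp5, the epidermal form, had a log2 fold change of -0.09 ± 0.15 (SE), at an edgeR adjusted p of 0.72.

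Hopx had 9.09, 18.5 and 9.67 FPKM in PTN 1, PTN 2 and PTN 3, against 14.1, 16.3 and 12.8 FPKM in Control 1, Control 2 and Control 3. PTN 1 and PTN 3 were below every Control library and PTN 2 above every one. The log2 fold change was -0.21 ± 0.28 (SE), with a 95% interval of -0.84 to 0.42 (edgeR adjusted p = 0.632). It was -0.03 without PTN 1, -0.06 without PTN 3 and -0.61 without PTN 2 (adjusted p = 0.962, 0.888 and 0.0967). Hopx is among the shortest eighth of genes, and its value with the length trend removed was 0.01, so its sign was not settled either. The antisense gene Hopxos shares 412 exon bases with Hopx, and reads from those shared bases cannot be told apart either. Of 12 further genes reported in human outer radial glia, all tested, 1 rose and 1 fell, with a median of 0.10. Tnc, which encodes the matrix protein tenascin-C, had 1073, 576 and 1332 CPM in PTN libraries, against 452, 353 and 442 CPM in Control libraries. It was 2.39-fold higher (edgeR adjusted p = 0.0324), although the adjusted p was 0.0924 to 0.109 without any one of PTN 1, Control 1, Control 2 and Control 3 and 0.117 with the length trend removed. Fam107a had 1.94, 5.26 and 5.10 CPM in PTN libraries, against 43.0, 50.5 and 44.5 CPM in Control libraries, 11.3-fold lower (edgeR adjusted p = 0.00187). This call held whichever library was left out. Fam107a and Tnc thus moved in opposite directions, while Hopx was not called.

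Nr2e1 encodes the orphan nuclear receptor TLX, a repressor required for adult neural stem cell renewal in the mouse. Nr2e1 had 16.1, 19.3 and 18.1 FPKM in PTN 1, PTN 2 and PTN 3, against 14.9, 16.5 and 16.1 FPKM in Control 1, Control 2 and Control 3. The ranges overlapped. The log2 fold change was 0.09 ± 0.14 (SE), and its 95% interval of -0.22 to 0.41 was the narrowest of the 10. Nr2e1 is in the fifth eighth of genes by length, and its value with the length trend removed was 0.03. Of 10 corepressors and reported targets, all tested, 0 were called in either direction by edgeR (5 had an unadjusted p under 0.05). The smallest p was that of Hdac3, a corepressor enzyme, with a log2 fold change of -0.47 ± 0.15 (SE), at an edgeR adjusted p of 0.0925. Among the targets, Cdkn1a, which encodes the cell cycle inhibitor p21, had a log2 fold change of 0.15 ± 0.15 (SE), at an edgeR adjusted p of 0.518.

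Hmga2 encodes a chromatin protein that is abundant in fetal precursors and declines with age in the mouse. Its RNA is a classic target of the let-7 microRNAs, whose maturation Lin28 proteins block. The matches to the let-7 seed are shown because the other 9 genes had none in the region searched. Only exact matches in the longest annotated 3′ untranslated region of each gene were searched. A gene without a match may therefore still be a let-7 target. For let-7b-5p (RefSeq, GRCm38.p6) capitals mark the seed, and for the sites in the 3′ untranslated region of Hmga2 (GENCODE M21, GRCm38, minus strand) they mark CTACCTC, the reverse complement of that seed.
mmu-let-7b-5p: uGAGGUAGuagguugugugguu
Hmga2 site 1, chr10:120364224-120364246: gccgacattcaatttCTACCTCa
Hmga2 site 2, chr10:120362987-120363009: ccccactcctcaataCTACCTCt
Hmga2 site 3, chr10:120362549-120362571: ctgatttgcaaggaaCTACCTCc
Hmga2 site 4, chr10:120361691-120361713: aatcaaaacacactaCTACCTCt
At least 1 such match was found in 9.18% of 20657 untranslated regions, and 4 or more in 12 of them (0.0581%). A match is a description of the sequence and no measure of let-7, which was not measured here.

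Hmga2 had 14.6, 4.67 and 8.38 FPKM in PTN 1, PTN 2 and PTN 3, against 3.83, 3.64 and 4.05 FPKM in Control 1, Control 2 and Control 3. All PTN values were above all Control values, but they spread widely and PTN 2 was only just above. The log2 fold change was 1.27 ± 0.36 (SE), 2.41-fold and the largest of the 10, with a 95% interval of 0.47 to 2.08 and an edgeR adjusted p of 0.0639. It was 0.77 without PTN 1, and 1.59 (adjusted p = 0.0113) without PTN 2. Without PTN 3 the adjusted p was 0.044, and without any one of the other libraries it lay between 0.15 and 0.184. Hmga2 belongs to the sixth eighth of genes by length (median 0.12). It shares 140 exon bases with an antisense gene, 1700006J14Rik, and reads from those shared bases cannot be told apart.

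Around Hmga2, 7 of 10 genes of the Lin28 axis, the IMP RNA-binding proteins and reported targets were tested, 2 rose and 0 fell, with a median log2 fold change of 0.28. Lin28a and Lin28b had at most 1 count in any library, so no difference could be measured. Igf2bp1 (IMP1), also not tested, had 1, 0 and 0 counts in PTN libraries, against 18, 9 and 13 counts in Control libraries. Igf2bp2 (IMP2), whose RNA Hmga2 promotes, had a log2 fold change of 0.26 ± 0.17 (SE), at an edgeR adjusted p of 0.343. Cdkn2b encodes the cell cycle inhibitor p15, neighbour of the Cdkn2a locus that Hmga2 lowers in mouse neural stem cells. Cdkn2b had 62.0, 78.7 and 85.7 CPM in PTN libraries, against 39.9, 38.7 and 37.0 CPM in Control libraries, 1.96-fold higher (edgeR adjusted p = 0.00941, but 0.0515 without Control 2 and 0.0762 without Control 3). Cdkn2a itself had a log2 fold change of 0.74 ± 0.23 (SE), at an edgeR adjusted p of 0.0878 (0.0286 without PTN 2, and 0.0232 with the length trend removed). Without any one of the other libraries, the adjusted p of Cdkn2a lay between 0.11 and 0.262. Nr6a1, which encodes an orphan nuclear receptor, rose 2.08-fold (edgeR adjusted p = 0.0428), at 2.81 ± 0.174 CPM in PTN libraries and 1.35 ± 0.0764 CPM in Control libraries (SD, n = 3 each). Its call was lost on leaving out any library but PTN 3 (adjusted p = 0.0666 to 0.177), and both under the replicate block (0.116) and with the length trend removed (0.115).

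Rest encodes the repressor that silences neuronal genes in precursors and other cells by binding RE1 elements. Rest had 6.51, 5.69 and 4.72 FPKM in PTN 1, PTN 2 and PTN 3, against 3.12, 3.96 and 3.84 FPKM in Control 1, Control 2 and Control 3. The groups did not overlap, with a log2 fold change of 0.64 ± 0.18 (SE, 1.56-fold), a 95% interval of 0.24 to 1.04 and an edgeR adjusted p of 0.0632. Rest is in the longest eighth of genes, and with the length trend removed its log2 fold change was 0.36 (adjusted p = 0.133). The adjusted p of Rest was 0.0256 without PTN 3, and between 0.11 and 0.213 without any one of the other libraries. Hopx, whose groups overlapped, and Rest, whose groups did not, lie 150369 bases apart on chromosome 5.

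Of 17 corepressors and regulators of Rest, all tested, 0 were called in either direction by edgeR (1 had an unadjusted p under 0.05), with a median of -0.06. That gene was Rcor2, a CoREST subunit, with 15.2 ± 3.53 CPM in PTN libraries and 25.6 ± 2.13 CPM in Control libraries (SD, n = 3 each, edgeR adjusted p = 0.05, which did not pass, with 0.0162 without PTN 2 and up to 0.161 without other libraries). Of 22 neuronal genes reported as Rest targets, 20 were tested, 3 rose and 2 fell, with a median of 0.27. Bdnf, the neurotrophin gene, rose 2.97-fold to 11.1 ± 1.19 CPM in PTN libraries, against 3.75 ± 0.904 CPM in Control libraries (SD, n = 3 each, edgeR adjusted p = 0.00665). Chgb, which encodes the secretory granule protein chromogranin B, fell 3.5-fold to 7.69 ± 2.88 CPM in PTN libraries, against 26.9 ± 3.34 CPM in Control libraries (SD, n = 3 each, edgeR adjusted p = 0.0064). The calls of Bdnf and Chgb held whichever library was left out. Syt4, a synaptotagmin, rose 4.74-fold on low values (edgeR adjusted p = 0.0333, but 0.0618 to 0.131 without any one of PTN 1, Control 1, Control 2 and Control 3). Stmn3, a stathmin named after its values were seen, fell (edgeR adjusted p = 0.0409), but kept the call on leaving out a library only without PTN 3 (0.051 to 0.134 otherwise), and lost it under the replicate block (0.0939) and with the length trend removed (0.12). The Rest targets thus had no one direction.

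Of these targets, 15 had a promoter in the RefSeq table, and 1 of the 15, Gria2, held the RE1 core on either strand. Of all single promoters 17 (0.0517%) held it, while a target was counted if any of its promoters did. The core searched is the run in capitals, with any base at the pair of positions in its middle. The site is shown as an example of the element Rest binds, on the strand of the gene (GRCm38.p6, minus strand).
Gria2 RE1, chr3:80802984-80803013: ccaaagcgCTGTCCGCGGTGCTaaaatcga
Gria2, a glutamate receptor subunit, had 84.7, 82.4 and 39.8 CPM in PTN libraries, against 30.0, 47.3 and 41.8 CPM in Control libraries. PTN 3 lay within the Control range, and the gene was not called (edgeR adjusted p = 0.13). The adjusted p of Gria2 was 0.0122 without PTN 3, and between 0.165 and 0.371 without any one of the other libraries. None of the 8 markers with a promoter in the table held the core.

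Of the nuclear proteins, Nr2e1, Hmga2 and Rest also had a microRNA match in common, which Hopx lacked. The miR-9-5p match ACCAAAG, found in 12.4% of untranslated regions, occurs once each in Nr2e1, Hmga2 and Rest and in none of the other 7 markers. The regions searched were 1401, 3014 and 3448 bases long in Nr2e1, Hmga2 and Rest. In the other 7 they ran from 277 (Fabp7) to 5310 bases (Msi2), and the part of length was not tested. MiR-9 is known to repress Nr2e1 in mouse neural stem cells. The seed and the matches are in capitals, the sites from GENCODE M21 (GRCm38, minus strand for Nr2e1 and Hmga2 and plus strand for Rest).
mmu-miR-9-5p: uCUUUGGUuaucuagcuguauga
Nr2e1 site, chr10:42562429-42562451: catcaaagtgctgaaACCAAAGg
Hmga2 site, chr10:120363747-120363769: aaatctgcttaggacACCAAAGa
Rest site, chr5:77286161-77286183: acttttctgaggcaaACCAAAGg
These 3 genes had log2 fold changes of 0.09, 1.27 and 0.64, in the order listed. Nr2e1, Hmga2 and Rest also share the annotation term for somatic stem cell population maintenance in the deposited table, which 30 tested genes (0.228%) carry, and Msi1, Msi2 and Vim share the term polysome (0.274%).

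Of 25 other radial glia and stem cell genes, all tested, 3 rose and 2 fell, with a median of 0.33. Among all tested genes 4.93% were called higher and 3.06% lower. At an unadjusted p under 0.05 there were 12 of the 25, beside 3549 of the 13161 tested genes. Emx2, a transcription factor of the dorsal forebrain, rose 1.83-fold to 51.3 ± 7.99 CPM in PTN libraries, against 28.0 ± 1.18 CPM in Control libraries (SD, n = 3 each, edgeR adjusted p = 0.0142, but 0.061 to 0.0965 on leaving out any one Control library). Egfr, the growth factor receptor of activated stem cells, and Cd44, a hyaluronan receptor, both rose (edgeR adjusted p = 0.0276 each), and both lost the call without any one of PTN 1, Control 1, Control 2 and Control 3 and under the replicate block (0.0507 for Egfr and 0.0708 for Cd44). With the length trend removed, Egfr, in the longest eighth of genes, had a log2 fold change of 0.51 in place of 0.82 (adjusted p = 0.107). Hes5, a Notch effector of radial glia, had 1.67, 3.34 and 1.51 CPM in PTN libraries, against 7.61, 6.61 and 7.49 CPM in Control libraries (edgeR adjusted p = 0.0151, but 0.0539 to 0.064 without any one of PTN 1, Control 1 and Control 3). Phgdh, of serine synthesis and named after its values were seen, fell as well (edgeR adjusted p = 0.0297), but had an adjusted p of 0.0581 to 0.0989 on leaving out any library but PTN 3. The precursor transcription factors Sox2, Sox9 and Pax6 were not called, with log2 fold changes of 0.37 ± 0.21, 0.01 ± 0.19 and -0.09 ± 0.23 (SE), at an edgeR adjusted p of 0.286, 0.975 and 0.816. The genes of this list, like the 10 markers, therefore did not move as one.

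**Figure D5:**
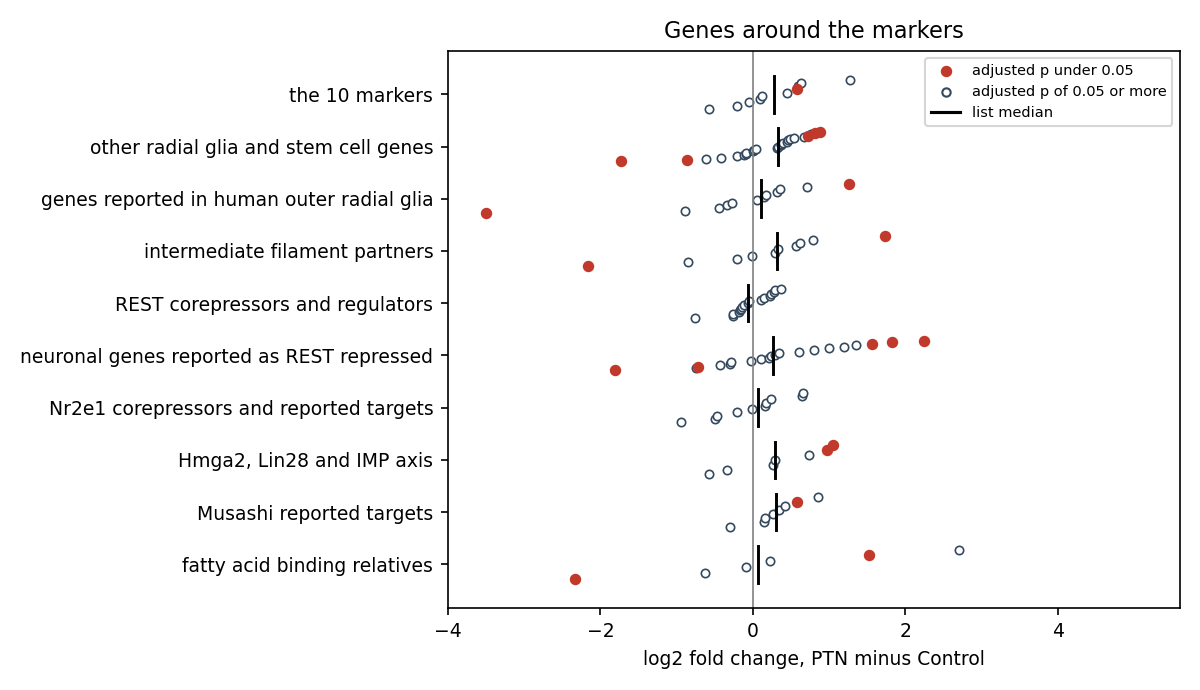
Log2 fold change, PTN minus Control, of every tested gene in the 10 markers and in 9 lists around them, filled red where the edgeR adjusted p is under 0.05, with a black line at each list's median. Medians lie between -0.06 and 0.33, and in 5 of the 9 lists around the markers called genes lie on both sides of 0.

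Markers of the cell types these cultures could also hold are given next against the 4.93% of all tested genes called higher and the 3.06% called lower, and their part in the results above was not tested. Of 10 astrocyte markers, all tested, 0 rose and 3 fell (Aldoc, Glul and Gjb6), with a median of -0.59, and their summed level lay between 4353 and 8791 CPM in PTN libraries and between 8277 and 9184 CPM in Control libraries. Between 1 and 5 astrocyte markers were called lower on leaving out a library. The call of Aldoc held each time, while Glul (up to 0.0845) and Gjb6 (up to 0.11) lost theirs without any one of PTN 1, Control 1, Control 2 and Control 3. Of 9 oligodendrocyte lineage markers 8 were tested, 1 rose (Opalin) and 2 fell (Pdgfra and Cspg4), with summed levels of 1138 to 1498 CPM in PTN libraries and 1321 to 1512 CPM in Control libraries. Of 10 neuroblast and neuron markers 9 were tested, 1 rose (Gad1) and 0 fell, with summed levels of 320.4 to 543 CPM in PTN libraries and 274 to 411 CPM in Control libraries. Of 8 ependymal markers 5 were tested and 0 called by edgeR (1, Rsph1, had an unadjusted p under 0.05), at 65.2 to 116 CPM in PTN libraries and 78.9 to 96.9 CPM in Control libraries, with Tmem212 at 0 throughout. Of 8 endothelial and mural markers 4 were tested and 1 fell (Pdgfrb), at 7.99 to 10.9 CPM in PTN libraries and 10.8 to 13.7 CPM in Control libraries. Of 6 fibroblast and meningeal markers 5 were tested, 1 rose (Foxc1) and 1 fell (Col3a1), at 12 to 24.8 CPM in PTN libraries and 12.4 to 16.8 CPM in Control libraries. Of 6 microglia markers 1 was tested (P2ry12, not called), and together they held 1.3 to 2.64 CPM in PTN libraries and 1.73 to 3.25 CPM in Control libraries. Of the called genes among these other cell types, Pdgfrb kept its call whichever library was left out, and Pdgfra lost it only without PTN 1 (0.0533). Cspg4 lost it in 3 of the 6 cases, Foxc1 and Col3a1 in 4, and Opalin and Gad1 in 5, with adjusted p-values of up to 0.147.

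The PTN libraries differed more among themselves than the Control libraries did. The coefficient of variation was larger in PTN libraries for 9 of the 10 markers, as it was for 71.2% of all tested genes. PTN 1 was the highest PTN library for Nes, Prom1, Fabp7, Hmga2 and Rest, PTN 2 for Msi2 and Hopx, and PTN 3 for Vim, Msi1 and Nr2e1. No one PTN library was thus high for the whole set.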

How the data were processed

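Total RNA was extracted and made into mRNA libraries, per the labels' protocols. The sources used here do not give the aligner, the counting program, its use of strand or the genome build. The authors deposited 1 table with an estimated (expected) count and an FPKM value for each gene and library. In each library between 91.9% and 92.8% of the expected counts, as deposited, were whole within 0.005, and those of the 10 markers all were. The FPKM values, as deposited, were used for levels between genes. Columns were matched to samples by group letter and replicate number.

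Counts were rounded and filtered with edgeR's filterByExpr (13161 of 22322 genes, 59%), scaled by TMM (factors 0.993 to 1.01) and tested with edgeR's quasi-likelihood test (edgeR 4.0.16, R 4.3.3), PTN minus Control, without covariates. P-values were adjusted by Benjamini-Hochberg over all tested genes, and called under 0.05. Intervals are 95%. With 1 CPM standing for 19.3 to 26.3 counts, genes under 1 CPM rest on few counts. The biological coefficient of variation was 0.208. The script was checked on simulated counts. The 16 rows without a symbol stayed in the fit.

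Markers, lists and alternatives were chosen with earlier results of these data known. Named genes are the 10 markers, from each list up to 4 called genes of smallest p (where none was called, the one gene with the lowest p), and the 3 genes most correlated with each called marker; others are named as chosen after their values were seen, or serve as background to a marker. These others are Numb, Fabp5, Lin28a, Lin28b, Igf2bp1, Igf2bp2, Cdkn2a, Cdkn1a, Gria2, Sox2, Sox9 and Pax6. Some genes that the lists hold and count are not reported here by name. Alternatives for scaling were upper quartiles, library totals and DESeq2 size factors, and for filtering no filter or 1 CPM in at least 3 libraries. Further ones were the Wald test of DESeq2 (1.42.0), limma-voom and limma (3.58.1) on log2(FPKM + 0.1) and log2(FPKM + 1), the replicate block, removal of a smooth trend with gene length, a threshold of 0.1 for the adjusted p, and each library left out in turn. Sequence matches used RefSeq promoters (GRCm38.p6) and GENCODE M21 untranslated regions.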

Additional observations from a re-analysis of the deposited data

How the results depend on the processing

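The count of all tested genes called higher and lower, 649 and 403, was 1134 and 774 by DESeq2's Wald test, 1089 and 824 at an adjusted p under 0.1, and within 1.5 times under the other scalings, filters and limma fits. Leaving out 1 library gave 201 to 1273 higher and 130 to 904 lower: 354 and 159 without PTN 1, 216 and 132 without Control 1, 232 and 172 without Control 2, 201 and 130 without Control 3, and 1273 and 904 without PTN 3. The count of markers called higher (1) was 0 under upper-quartile scaling and limma on log2 FPKM with either pseudocount, 2 with no filter, 3 at an adjusted p under 0.1 and 4 by DESeq2, and 0 to 4 on leaving out a library. The count called lower (0) was 1 by DESeq2 and at an adjusted p under 0.1, and 0 to 1 on leaving out a library. No called value changed sign.

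The replicate numbers are shared between groups, but same-numbered libraries did not consistently deviate together from their group means. Their r across genes was -0.483, 0.392 and 0.0784, against -0.54 to 0.385 for libraries of unlike number. They were therefore not taken as pairs in the main fit, and whether they shared a culture or batch was not tested. With the replicate block, 454 genes were higher and 272 lower, and 0 markers were called in either direction (Vim adjusted p = 0.18).

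Removing the length trend left 490 genes higher and 357 lower. With 3 libraries a group, the intervals of the log2 fold changes of Nes, Prom1, Fabp7, Hopx and Nr2e1 include changes of either sign. Lin28a, Lin28b and Igf2bp1 were too low to test.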
